A study of Mus musculus with 21 samples.

Results

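The genes described are 9 that encode enzymes of branched-chain amino acid breakdown: Dbt, Ivd, Mccc1, Mccc2, Auh, Hibch, Aldh6a1, Pcca and Mmut. They were chosen by gene symbol in the platform annotation, and each gene is represented by its brightest probe with a single symbol, out of 16248 genes tested. All 9 had such a probe. Their RNA was measured on GeneChip whole-transcript arrays in epididymal fat, a visceral depot, from male C57BL/6J mice that arrived at 4 weeks of age and, after 1 week of acclimation, spent 12 weeks on the study diets. Each of 7 groups had 3 arrays, 21 in total. Fat supplied 10% of energy in the normal diet (ND) and 40% in the high-fat diet (HFD). A supplement was added to high-fat feed in 5 further groups: the probiotic bacterium Bacillus coagulans at 0.3% of weight (BC), steamed grain at 0.3% (SMG), and fermented mixed grain at 0.3% (L_FMG) or 0.9% (H_FMG). What RMG mice received, and at which dose, is not explained in the protocols. A size of 10 mice is stated for ND, HFD, BC and SMG, and the choice of mice for the arrays is not described. An array is called by its group and its title's number. The labels do not say that arrays of a group come from separate mice, so p-values measure the spread between these arrays, which may be technical.

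Leucine, isoleucine and valine are first transaminated and then oxidised in mitochondria by the branched-chain ketoacid dehydrogenase complex, the committed step they share. After it the routes part: leucine carbon goes to acetyl-CoA and acetoacetate, while valine and part of isoleucine go to propionyl-CoA and on to succinyl-CoA of the citric acid cycle. Differentiating and mature adipocytes use these amino acids as a source of acetyl-CoA for fat synthesis, and lower expression of the pathway in fat is a known companion of obesity. Several genes at the entrance of the pathway, among them Bcat2, Bckdha, Bckdhb and Bckdk, were not analysed here. The tissue label was checked with adipocyte markers: over the 21 arrays the mean log2 level was 12.18 for Fabp4, a fatty acid carrier, 12.07 for the fatty acid transporter Cd36, 11.38 for Lep, the leptin gene, and 9.32 for Adipoq, the adiponectin gene. These defining markers were bright in every group.

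The levels of the 9 genes rose and fell together from array to array, which the heat map of gene-centred levels shows array by array. All 36 of 36 gene pairs had a positive Pearson correlation over the 21 arrays, from 0.60 for Hibch with Pcca to 0.93 for Mccc1 with Mccc2, with a median of 0.83. Mccc1 and Mccc2 encode the subunits of methylcrotonyl-CoA carboxylase, an enzyme of leucine breakdown. With group means removed the median was 0.84. In the 18 arrays of the 6 high-fat groups it was 0.74, with a range of 0.49 to 0.87. These correlations describe arrays that share groups, and the genes of an array share its normalization and RNA. Hibch followed the others least closely: its correlation with the mean of the other 8 genes was 0.77, against 0.86 to 0.95 for each of the rest.

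**Figure D1:**
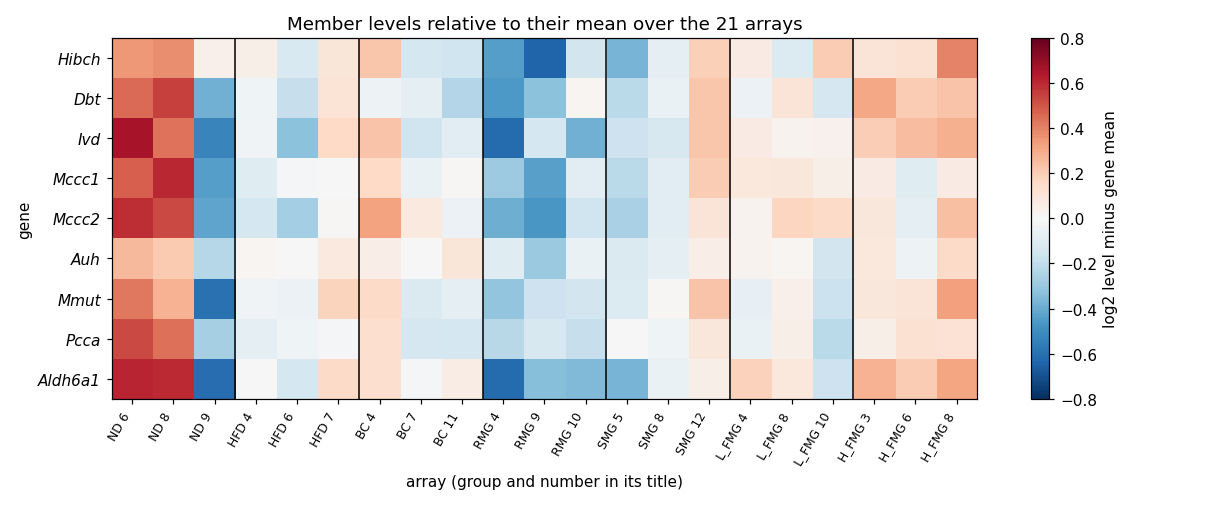
Log2 level of each gene (rows) minus its own mean over the 21 arrays (columns, in group blocks separated by lines); red is above and blue below the gene's mean. ND arrays 6 and 8 are high in all rows, ND array 9 is low in 8 of the 9 rows, and the RMG arrays are low in nearly every row.

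Since the genes moved together, the DNA before their start sites is shown for 4 of them: Hibch, which followed the others least, and the leucine genes Ivd, Mccc1 and Mccc2. The sequences are from RefSeq (assembly GRCm38.p6), run 5′ to 3′ on the gene's strand from 250 bases before to 50 bases after the annotated start, and lie at chr1:52844788-52845087 (Hibch, plus strand), chr2:118861744-118862043 (Ivd, plus), chr3:36000629-36000928 (Mccc1, minus) and chr13:100015590-100015889 (Mccc2, minus). Capitals mark a match on either strand to AAGGTCA (a nuclear receptor site such as that of the oestrogen-related receptors), CACGTG (the E-box core), GGGCGG (a GC box) or CCAAT (read as ATTGG on the other strand).
Hibch: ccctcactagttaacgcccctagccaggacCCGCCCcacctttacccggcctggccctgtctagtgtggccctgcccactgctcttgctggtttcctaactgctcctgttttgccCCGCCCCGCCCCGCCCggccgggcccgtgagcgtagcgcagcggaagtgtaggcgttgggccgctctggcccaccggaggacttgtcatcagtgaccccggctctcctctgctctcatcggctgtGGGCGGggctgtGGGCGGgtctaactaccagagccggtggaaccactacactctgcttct
Ivd: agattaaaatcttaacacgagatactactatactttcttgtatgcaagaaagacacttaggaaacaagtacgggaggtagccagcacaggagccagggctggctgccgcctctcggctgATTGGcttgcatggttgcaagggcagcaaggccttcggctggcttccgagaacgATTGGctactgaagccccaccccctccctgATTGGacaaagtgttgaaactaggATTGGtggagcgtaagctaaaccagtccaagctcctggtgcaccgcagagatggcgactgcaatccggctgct
Mccc1: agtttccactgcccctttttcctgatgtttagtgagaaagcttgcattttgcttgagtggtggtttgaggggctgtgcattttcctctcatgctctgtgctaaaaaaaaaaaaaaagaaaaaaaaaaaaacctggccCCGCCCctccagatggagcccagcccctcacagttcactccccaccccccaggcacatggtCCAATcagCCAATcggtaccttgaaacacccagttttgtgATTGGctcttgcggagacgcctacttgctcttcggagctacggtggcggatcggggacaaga
Mccc2: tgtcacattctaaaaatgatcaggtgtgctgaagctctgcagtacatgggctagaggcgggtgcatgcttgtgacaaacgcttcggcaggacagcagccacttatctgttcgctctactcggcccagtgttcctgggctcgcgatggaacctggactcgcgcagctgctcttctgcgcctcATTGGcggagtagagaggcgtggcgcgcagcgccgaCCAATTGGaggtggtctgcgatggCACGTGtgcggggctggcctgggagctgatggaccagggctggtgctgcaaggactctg
Ivd holds 4 CCAAT letter runs, Mccc1 holds 3 and 1 GC box, and Mccc2 holds 3 CCAAT runs, of which 2 overlap on opposite strands, and the E-box. Hibch holds 6 GC boxes and no CCAAT. Auh, a leucine gene whose sequence is not shown, also holds GC boxes and no CCAAT. Its correlation with the mean of the other 8 genes was 0.86, the lowest after that of Hibch, and close to 0.87 for Pcca. Whether this difference in letters goes with how closely a gene followed the rest was not tested. Of the 9 genes 7 had an entry (all but Dbt and Mmut), with 9 start sites between them. CCAAT was found at 5 of these 7 genes (Ivd, Mccc1, Mccc2, Aldh6a1 and Pcca), against 37.4% of 32851 promoters of the same length, GGGCGG at 4 of 7 against 35.7%, CACGTG at 1 of 7 against 7.15%, and AAGGTCA at 0 of 7 against 4.72%. A gene with several start sites has more chances of a match than a single promoter. These are matches of letters in a window, and nothing on binding was measured.

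ND array 9 stood apart from the other ND arrays and bears on every comparison with ND. It lay below the mean of ND arrays 6 and 8 in all 9 genes, by a log2 difference of -0.31 (Hibch) to -1.21 (Aldh6a1), with a median of -0.95 against -0.04 over all genes. ND arrays 6 and 8 were the 2 highest of the 21 arrays for 7 of the 9 genes, whereas array 9 was the lowest of all for Mccc1, Mmut and Pcca and lay below every HFD array for 8 of the 9. By the quality measures it had the lowest fitted array weight of the 21 arrays (0.208, against 1.46 in array 8) and the smallest spread over genes (SD 1.77, against 1.90 and 1.88). Its mean over 9 adipocyte markers, as log2 relative to the gene means, was -0.04 (0.43 and 0.42 in arrays 6 and 8), its mean over 14 macrophage markers -0.38 (-1.04 and -1.13), and its mean over 11 citric acid cycle genes -0.34 (0.19 and 0.21). The part of these differences in the results was not tested, and counts of the 9 genes called against ND are given with and without the array. Array 9 stood apart in these same 9 genes, so leaving it out raises their ND means and narrows their spread. The calls without it are therefore no independent support, and ND then has 2 arrays.

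Dbt encodes the transacylase core of the branched-chain ketoacid dehydrogenase complex. Its log2 level was 7.97, 8.06 and 7.14 in ND arrays 6, 8 and 9, and 7.48, 7.33 and 7.63 in the HFD arrays. It was 7.06, 7.19 and 7.53 in RMG and 7.82, 7.72 and 7.74 in H_FMG. All H_FMG arrays were above all HFD and all RMG arrays, while ND spanned both. The BC arrays lay between 7.28 and 7.48, the SMG arrays between 7.30 and 7.74 and the L_FMG arrays between 7.38 and 7.62, so these groups overlapped HFD.

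The leucine route was represented by Ivd, Mccc1, Mccc2 and Auh. Ivd, the isovaleryl-CoA dehydrogenase, had log2 levels of 7.79, 7.57 and 6.61 in ND and 7.11, 6.81 and 7.30 in HFD. It had 6.52, 6.995 and 6.75 in RMG and 7.33, 7.38 and 7.42 in H_FMG. H_FMG was again above every HFD and RMG array, and its SD of 0.05 (n = 3) was small beside 0.63 in ND.

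Mccc1, the biotin-carrying subunit of methylcrotonyl-CoA carboxylase, stood at 7.96, 8.09 and 7.05 in ND, 7.39, 7.48 and 7.48 in HFD, 7.19, 7.05 and 7.40 in RMG and 7.55, 7.39 and 7.55 in H_FMG. Mccc2, its partner subunit, stood at 7.55, 7.48 and 6.53 in ND, 6.81, 6.68 and 6.97 in HFD, 6.57, 6.49 and 6.80 in RMG and 7.04, 6.88 and 7.19 in H_FMG. For both subunits the 3 L_FMG arrays (7.53 to 7.58 for Mccc1, 6.98 to 7.13 for Mccc2) were above the 3 HFD arrays, as was so for 7.3% of all genes.

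Auh, the methylglutaconyl-CoA hydratase that also binds AU-rich RNA, had the lowest probe signal of the 9 and the narrowest range. Its log2 level was 5.91, 5.86 and 5.42 in ND, 5.67, 5.65 and 5.73 in HFD, 5.56, 5.36 and 5.60 in RMG and 5.74, 5.61 and 5.81 in H_FMG. The RMG arrays were all below the HFD arrays, and the group means ran from 5.50 in RMG to 5.73 in ND. Probe signals of different genes are not on one scale, so levels are set only against those of the same gene.

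Hibch and Aldh6a1 act late in valine breakdown. Hibch, the hydrolase that frees hydroxyisobutyrate from coenzyme A, had log2 levels of 7.41, 7.44 and 7.11 in ND and 7.11, 6.95 and 7.16 in HFD. It had 6.63, 6.43 and 6.92 in RMG and 7.17, 7.19 and 7.47 in H_FMG. All RMG arrays were below all ND, HFD and H_FMG arrays. In Hibch ND array 9 differed least from its group.

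Aldh6a1, the methylmalonate semialdehyde dehydrogenase that yields propionyl-CoA, stood at 9.75, 9.73 and 8.53 in ND, 9.14, 8.999 and 9.29 in HFD, 8.52, 8.80 and 8.79 in RMG and 9.42, 9.34 and 9.45 in H_FMG. The order RMG, HFD, H_FMG had no overlap between neighbours. A second, dimmer Aldh6a1 probe correlated with the first at 0.80 over the 21 arrays. It stood at 6.82, 6.60 and 6.96 in HFD and 6.95, 6.85 and 7.23 in H_FMG, so these groups overlapped. Its RMG arrays (6.18, 5.99 and 6.52) were all below its HFD arrays.

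Propionyl-CoA is carried on by Pcca, the biotin-carrying subunit of propionyl-CoA carboxylase, and Mmut, the cobalamin-dependent methylmalonyl-CoA mutase. Pcca had log2 levels of 8.81, 8.72 and 8.01 in ND, 8.20, 8.24 and 8.27 in HFD, 8.06, 8.15 and 8.10 in RMG and 8.32, 8.40 and 8.40 in H_FMG. As with Aldh6a1, the RMG arrays were all below and the H_FMG arrays all above the HFD arrays. Mmut stood at 8.21, 8.07 and 7.19 in ND, 7.76, 7.74 and 7.97 in HFD, 7.47, 7.62 and 7.64 in RMG and 7.88, 7.89 and 8.12 in H_FMG, with RMG below HFD and H_FMG overlapping it.

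**Figure D2:**
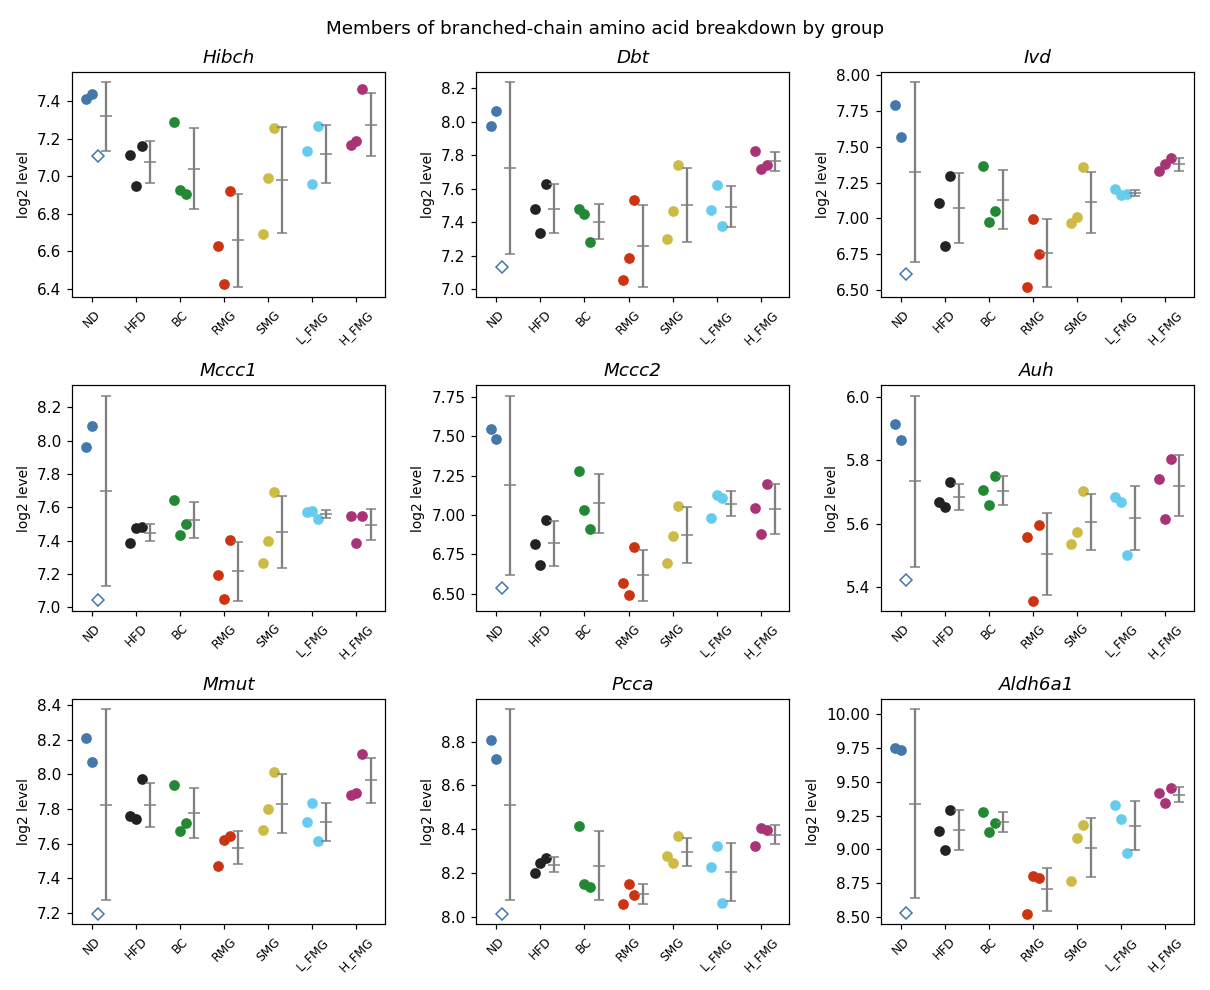
Log2 level (vertical axes, a separate scale for each gene) of the 9 genes in the 7 groups; points are arrays, the open diamond is ND array 9, and grey bars are mean ± SD of the 3 arrays of a group. RMG has the lowest group mean in all 9 panels, and H_FMG or ND the highest.

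RMG had the lowest group mean for 9 of 9 genes, and the highest was that of ND for 5 and of H_FMG for 4 (Dbt, Ivd, Mmut and Aldh6a1). With ND array 9 left out, the ND mean was the highest for 9 of 9. As a mean over the 9 genes, each relative to its own mean, the log2 level was -0.29 ± 0.11 (SD, n = 3) in RMG, -0.04 ± 0.18 in SMG, -0.03 ± 0.11 in HFD, 0.01 ± 0.13 in BC, 0.01 ± 0.05 in L_FMG, 0.15 ± 0.08 in H_FMG and 0.18 ± 0.49 in ND. The means of SMG, HFD, BC and L_FMG lay closer to each other than the SD within SMG, HFD or BC. ND stood at 0.46 without array 9 (values 0.48 and 0.45). In the moderated F test over the 7 groups 0 of the 9 genes were called at an adjusted p under 0.05, where 6.47% of all genes were called. Hibch was the only one with an unadjusted p under 0.05 and had the smallest value of the 9 (adjusted p = 0.0847, limma with Benjamini-Hochberg adjustment over all genes, as for every adjusted p here). With ND array 9 left out all but Auh were called, 8 of 9, against 8.33% of all genes, and with SMG array 12 left out 1 was called.

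The first comparison asks what the high-fat diet did. With all arrays, the 9 genes had lower means in HFD than in ND by 0.0003 to 0.37 on the log2 scale (median -0.24 against -0.04 over all genes), but 0 of 9 passed the test and all overlapped between the groups, where 8.63% of all genes were called. The largest difference was that of Mccc2, -0.37 ± 0.19 (SE), a ratio of 0.775, with an adjusted p of 0.225 and a 95% interval of -0.76 to 0.02. For Mmut the interval ran from -0.37 to 0.37. At an unadjusted p under 0.05 the count was also 0. Once ND array 9 was left out, 6 of 9 fell: Mccc2 by 0.70 (a ratio of 0.618), Ivd by 0.61, Aldh6a1 by 0.60, Mccc1 by 0.58, Dbt by 0.54 and Pcca by 0.53, with adjusted p between 0.0015 and 0.017, where 3.11% of all genes were called lower. Hibch (-0.35), Mmut (-0.32) and Auh (-0.21) did not pass then. Leaving out ND array 6 or 8 instead gave 0 calls and turned the sign of Auh, Mmut and Aldh6a1, as centring each array on its median did for Auh and Mmut, since that centring shifts HFD against ND by 0.105.

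**Figure D3:**
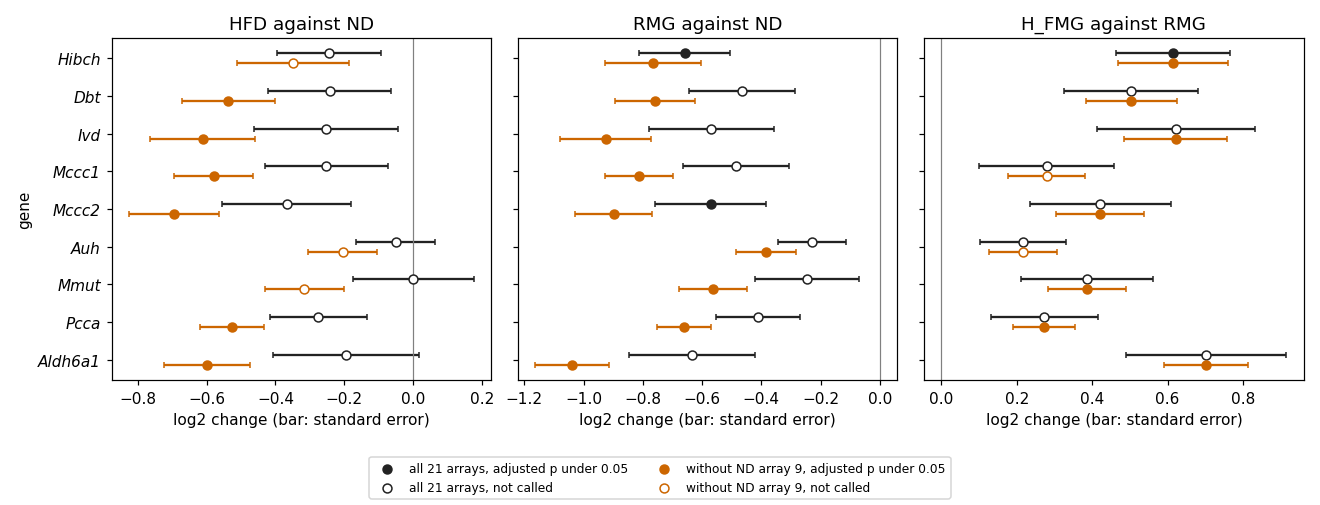
Log2 change (horizontal axis) with its standard error for the 9 genes in 3 comparisons, with all 21 arrays (black) and without ND array 9 (orange); filled points had an adjusted p under 0.05. Without ND array 9 filled points number 6 in HFD against ND, 9 in RMG against ND and 7 in H_FMG against RMG; with all arrays they number 0, 2 and 1.

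RMG differed most from ND. Hibch fell by 0.66 ± 0.15 (SE; a ratio of 0.633, adjusted p = 0.00545) and Mccc2 by 0.57 ± 0.19 (a ratio of 0.673, adjusted p = 0.0444), so 2 of 9 were called lower, against 4.53% of all genes. Hibch was also the only one of the 9 with every RMG array below every ND array, which held for 12.5% of all genes. The other 7 had changes of -0.23 (Auh) to -0.63 (Aldh6a1) with adjusted p from 0.0504 to 0.373. The call of Hibch held with each of the 21 arrays left out in turn (adjusted p 0.00267 to 0.0372). That of Mccc2 was lost in 12 of these 21 fits, namely without ND 6 or 8, any HFD array, BC 7, any RMG array, SMG 8, L_FMG 8 or H_FMG 3, where its adjusted p reached 0.185. It was also lost with arrays centred on their medians, with no intensity trend, and in a fit of RMG and ND alone (adjusted p = 0.202). Leaving out ND array 9, 9 of 9 fell, by 0.38 (Auh) to 1.04 (Aldh6a1, a ratio of 0.487), where 6.39% of all genes were called lower. The second Aldh6a1 probe, tested with all probes as separate features, fell by 0.84 ± 0.20 with all arrays (adjusted p = 0.00619).

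Against HFD, which it shares with the other supplemented groups as a control, RMG had lower means for all 9 genes, by 0.13 to 0.44. The test called 0 of the 9, and 0% of all genes. In the limma fit of all arrays Hibch was the only one of the 9 with an unadjusted p under the threshold of 0.05 (0.0127, change -0.42 ± 0.15). Without ND array 9, which enters this comparison only through the shared spread, 5 of 9 had such a p and 0 were called. All RMG arrays were below all HFD arrays for 5 of 9 (Hibch, Auh, Mmut, Pcca and Aldh6a1), which held for 4.65% of all genes.

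H_FMG, the higher dose of fermented grain, had higher means than HFD for all 9 genes, by 0.04 (Auh) to 0.31 (Ivd), with 0 of 9 called, where 0.00615% of all genes were, and 0 at an unadjusted p under 0.05. The interval for Ivd was -0.13 to 0.74. Without ND array 9, which acts here through the shared spread, 3 of 9 had an unadjusted p under 0.05 and 0 were called. Hibch, Dbt, Ivd, Pcca and Aldh6a1, 5 of 9, had all H_FMG arrays above all HFD arrays, which held for 10.7% of all genes. With arrays centred on their medians Mccc1 and Auh turned to -0.01 and -0.02, and Auh also turned to -0.01 without H_FMG array 8. Against ND the changes of H_FMG ran from -0.21 (Mccc1) to 0.14 (Mmut) with a median of -0.01, 0 were called (0.00615% of all genes) and 0 had an unadjusted p under 0.05. With ND array 9 left out all 9 were negative, from -0.15 (Hibch) to -0.53 (Mccc1, adjusted p = 0.0678), with a median of -0.30. Of these 0 were called (0.135% of all genes) and 4 had an unadjusted p under 0.05.

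H_FMG was set against RMG after the values had been seen, so its p-values are no independent support for the pattern that led to it. All 9 genes were higher in H_FMG, by 0.22 (Auh) to 0.70 (Aldh6a1), and 8 of 9, all but Mccc1, had every H_FMG array above every RMG array, which held for 11.6% of all genes. Hibch was called, 0.61 ± 0.15 (a ratio of 1.53, adjusted p = 0.0207), 1 of 9 against 2.28% of all genes called higher, and Aldh6a1 lay at the threshold (0.70 ± 0.21, a ratio of 1.63, adjusted p = 0.05002). Without ND array 9, which enters this comparison only through the shared spread, 7 were called (all but Mccc1 and Auh), against 3.88%. The count was 3 without ND array 6, 2 without ND 8, SMG 5 or SMG 12, and 0 without RMG 4, RMG 9 or H_FMG 8.

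Of the other groups, BC, SMG and L_FMG had changes of -0.13 (Aldh6a1 in SMG) to 0.25 (Mccc2 in BC and in L_FMG), and the mean of the 5 supplemented groups had changes of -0.06 to 0.11, with 0 of 9 called in each and 0% of all genes. None of the 9 had an unadjusted p under 0.05 in these 4 comparisons. Without ND array 9 there was 1 in BC and 1 in L_FMG, with 0 called. Between the doses of fermented grain, H_FMG was higher than L_FMG for 7 of 9 genes, by up to 0.27 (Dbt). Here 0 were called (0%), and 0 had an unadjusted p under 0.05, or 2 without ND array 9. Dbt, Ivd, Mmut and Aldh6a1 had all H_FMG arrays above all L_FMG arrays, which held for 4.79% of all genes. L_FMG against SMG at the same percentage, and L_FMG against BC, gave changes of -0.11 to 0.20 with 0 called (0% in both) and 0 at an unadjusted p under 0.05. Against ND, 0 of 9 were called in BC (0.111% of all genes), SMG (5.83%), L_FMG (0.00615%) and the mean of the 6 high-fat groups (10.1%), and at an unadjusted p under 0.05 there were 0, 1, 1 and 2. Without ND array 9 the genes called lower were 4 in BC (0.88% of all genes), 6 in SMG (1.99%), 3 in L_FMG (0.702%) and 7 in the mean of the high-fat groups (3.63%). These comparisons share the ND arrays.

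Of 46 further genes of the pathway, its cofactors and its regulators, 27 were measured. In HFD against ND 1 fell and 1 rose, with a median of 0.03. The share called was not above the 8.63% of all genes. Acaca, the acetyl-CoA carboxylase of fat synthesis and like Mccc1 and Pcca a biotin enzyme, fell by 0.83 ± 0.21 (adjusted p = 0.0162), and Slc3a2, the heavy chain of the large neutral amino acid transporter, rose by 0.51 ± 0.10 (adjusted p = 0.00485). Genes of shared fatty acid oxidation steps had positive changes that did not pass: Hadha 0.27 (adjusted p = 0.0987) and Ehhadh 0.53 (adjusted p = 0.103). Lmbrd1, which exports cobalamin from lysosomes, had 0.31 (adjusted p = 0.0643). Dld, the third component of the ketoacid dehydrogenase, had -0.05, and Pcx, pyruvate carboxylase, -0.29 (adjusted p = 0.251). Of the regulators Pparg, the adipocyte receptor, had -0.31 (adjusted p = 0.114). ND array 9 bears on these values too: without it Ehhadh had 0.30, Lmbrd1 0.18 and Dld -0.22, which did not pass, and Pcx (-0.48) and Pparg (-0.48) were called lower. Of 11 citric acid cycle genes 0 were called with all arrays, and their median was 0.02. With array 9 left out all 11 were negative with a median of -0.20, and 1 was called, Fh1, the fumarase gene (-0.35, adjusted p = 0.0335), named after its value was seen. Of all genes 3.11% were called lower without array 9. RMG against ND had 2 lower (Acaca and Pparg, -0.55) and 3 higher (Slc3a2, Hadha and Lmbrd1), and 7 lower and 2 higher without ND array 9. Of all 16248 genes 736 were lower and 1665 higher there, and 1038 and 1419 without the array. In H_FMG against HFD 0 were called, where 0.00615% of all genes were. In H_FMG against RMG Abat, Klf15, Mlxipl and Pparg were higher and Hadha lower, where 370 of all genes were higher and 799 lower. Pparg had 0.51, Mlxipl 0.48 and Hadha -0.34. Abat (0.83) and Klf15 (0.43) are named after their values were seen.

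Markers of cell types moved beside the 9 genes. In a whole fat pad, fewer cells of a type and less RNA per cell cannot be told apart. Over the 21 arrays, the mean of the 9 genes had a Pearson correlation of 0.89 (Spearman 0.92) with the mean of 9 measured of 16 adipocyte markers, and of -0.76 (Spearman -0.73) with 14 of 16 macrophage markers. Without the 2 arrays farthest from the median of the marker mean, these were 0.84 and -0.59, and within the 18 high-fat arrays 0.94 and -0.82. The adipocyte markers differed singly over the 21 arrays: Lep had -0.01, Cd36 0.31 and Fabp4 0.54. The others ran from 0.75 (Pck1) to 0.87 (Adipoq). With 8 of 10 endothelial markers the correlation was 0.78, and 0.88 in the high-fat arrays. With the 11 citric acid cycle genes it was 0.65 over the 21 arrays and 0.16 over the high-fat arrays. In all, 15 gene lists were set against the mean of the 9. The highest correlation over the 21 arrays was that of 4 genes of biotin attachment and other biotin carboxylases, 0.90, and 0.83 in the high-fat arrays. Singly, the carboxylases Pcx, Acaca and Acacb had 0.86, 0.82 and 0.72 over the 21 arrays. Hlcs, the only biotin attachment gene measured, had -0.04. The correlation was -0.44 with 9 fibroblast markers (-0.78 without ND array 9 and -0.72 in the high-fat arrays). Singly, over the 21 arrays, these ran from -0.77 (Col1a1) to 0.21 (Dpp4), with Dcn (0.12) and Pi16 (0.02) also positive. With 4 lymphocyte markers it was -0.71 (-0.64 in the high-fat arrays). Of these Il7r had -0.82 and Cd79b -0.30 over the 21 arrays, while Cd8a (0.13) and Ms4a1 (0.26) were positive. All these correlations describe arrays that share groups, so no p is given. In HFD against ND 4 of 9 adipocyte markers were lower, 13 of 14 macrophage markers higher, 2 of 8 endothelial markers lower and 3 of 9 fibroblast markers higher. Without ND array 9 the counts were 5, 13, 5 and 3. Of the adipocyte markers 2 had positive changes with all arrays, up to 0.42, and 0 were called higher. Of all 16248 genes 340 were lower and 1063 higher, and 506 and 856 without the array. In RMG against ND the counts of markers were 6, 13, 7 and 4, with and without the array. Of all genes 736 were lower and 1665 higher there, and 1038 and 1419 without the array. The adipocyte mean ranged from -0.04 to 0.43 in ND, -0.33 to -0.03 in HFD, -0.47 to -0.21 in RMG and 0.12 to 0.29 in H_FMG. The macrophage mean ranged from -1.13 to -0.38, 0.35 to 0.58, 0.59 to 0.73 and -0.87 to 0.03 in the same groups. The endothelial mean ranged from 0.09 to 0.32, -0.37 to -0.07, -0.46 to -0.23 and 0.11 to 0.39. The defining macrophage marker Adgre1 had a mean log2 level of 8.79, and the part of the cell types in the changes of the 9 genes was not tested.

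**Figure D4:**
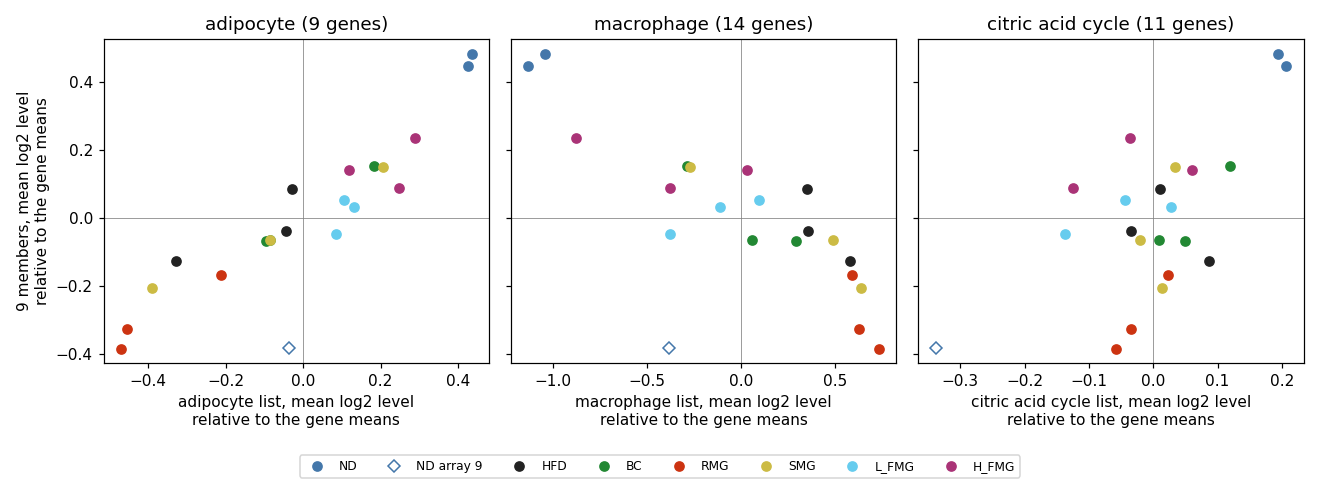
Mean log2 level of the 9 genes relative to their gene means (vertical axis) against the same mean of 9 adipocyte markers, 14 macrophage markers and 11 citric acid cycle genes (horizontal axes); points are the 21 arrays, coloured by group, and the open diamond is ND array 9. The correlations over the 21 arrays are 0.89, -0.76 and 0.65, and ND array 9 lies below the other arrays of like adipocyte level.

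Of all genes outside the 9, those most like their mean over the 21 arrays were Ebf1 (Pearson r = 0.96), a transcription factor of adipocyte and B cell development, Ginm1 (0.96), Gphn (0.95), which encodes gephyrin, Ermp1 (0.95), Abcd2 (0.95), a peroxisomal fatty acyl-CoA transporter, and Adhfe1 (0.95), a mitochondrial hydroxyacid transhydrogenase. With group means removed their r was between 0.94 and 0.96, and 59 such genes had r above 0.9.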

How the data were processed

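The deposited values were log2 levels, 1 per probe and array, per the series' value table. The base was inferred from their range (0.84 to 12.7), and for the authors' summarisation and normalization the sources used here give nothing. Per the labels' protocols, RNA was extracted with Trizol and labelled with biotin. The table is held in part: 24291 complete probes, of which 17067 had 1 gene symbol, 1139 several and 6085 none. The brightest probe represented each gene, and 0 columns were left unmatched. The number of arrays limits the precision.

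A linear model with group means over 21 arrays and an intensity trend was fitted in limma (version 3.58.1; R 4.3.3). P-values are two-sided, with Benjamini-Hochberg adjustment over 16248 genes and a threshold of 0.05. The fit was tested on simulated data. Array medians ran from 4.23 to 4.39, and no batch is given. Genes named outside the 9 passed in HFD against ND or H_FMG against HFD, or had the 2 smallest p of their list in HFD against ND, or were the 6 most alike; exceptions are marked. Members and lists were chosen with earlier results of these data known. Alternatives covered normalization, weights, trend, filter, probes, samples and the replicate block.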

Additional observations from a re-analysis of the deposited data

Results flagged for a closer look

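Hibch, Pcca and Aldh6a1 stood out because every RMG array was below and every H_FMG array above the HFD arrays, so that the changes of these groups against the same HFD arrays had opposite signs. Taken singly, the first held for 4.65% of all genes and the second for 10.7%. The share of all genes with both was not counted, so the pattern is not shown to be particular to these genes. In the second, dimmer Aldh6a1 probe the H_FMG and HFD arrays overlapped, so that probe did not show the pattern. The difference between the changes was 0.61 on the log2 scale for Hibch, 0.27 for Pcca and 0.70 for Aldh6a1. These genes were singled out by the same arrays, so the fit of H_FMG against RMG, itself chosen after the values were seen, is no separate support. Its adjusted p was 0.0207 for Hibch, 0.297 for Pcca and 0.05002 for Aldh6a1 (limma, Benjamini-Hochberg over all genes). Without ND array 9 the values were 0.0117, 0.041 and 0.00246, and without RMG 4, RMG 9 or H_FMG 8 the count called was 0 of the 9 genes.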

How the results depend on the processing

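The number of the 9 genes called changed with the processing mainly in comparisons with ND, in H_FMG against RMG and in the F test. Calls over all genes change with the setting as well. In HFD against ND 340 genes were lower and 1063 higher with all arrays, and 506 and 856 without ND array 9. The F test called 6.47% and 8.33% in these settings. The shares under the other settings are not given here, so the counts below alone do not set the 9 genes apart. In HFD against ND (0 called) it was 1 with quantile normalization, 6 with array weights, 7 without ND array 9 with quantile normalization, 8 without ND array 9 in a fit of only those groups, and 0 to 6 over fits that each leave out 1 array. In RMG against ND (2) it was 8 with quantile normalization, 9 with weights, 1 with median centring, with no trend or with only the groups compared, 4 with dim genes left out, and 1 to 9 over left-out arrays. In H_FMG against RMG (1) it was 4 with quantile normalization, 7 with weights, 2 with dim genes left out, 6 with only the groups compared, and 0 to 7 over left-out arrays. For the 6 high-fat groups against ND (0) it was 2 with quantile normalization, 7 with weights and 0 to 7 over left-out arrays, and for the F test (0) it was 2, 7 and 0 to 8. With weights BC, SMG and L_FMG against ND gave 2, 8 and 1, and over left-out arrays 0 to 4, 0 to 6 and 0 to 3. Arrays with the same number did not deviate together (18 pairs, r from -0.30 to 0.18, median -0.05); the replicate block gave 4 called in RMG against ND and 2 in H_FMG against RMG, and Mmut in HFD against ND turned to 0.0023. Median centring turned Auh and Mmut in HFD against ND to 0.0546 and 0.1046, Mccc1 and Auh in H_FMG against HFD to -0.0135 and -0.0235, and Mmut in the 6 high-fat groups against ND to 0.0297. Over left-out arrays HFD against ND ran from -0.2053 to 0.0401 for Auh, -0.3159 to 0.1925 for Mmut and -0.5994 to 0.0105 for Aldh6a1, Auh in H_FMG against HFD from -0.0061 to 0.0892, and the 6 high-fat groups against ND from -0.5772 to 0.0143 for Ivd and -0.3571 to 0.1513 for Mmut. Values of single genes were followed in HFD and RMG against ND, RMG and H_FMG against HFD, and the 6 high-fat groups against ND. Among these only RMG against ND had calls to lose, and H_FMG against RMG was not included. Of 1314 such values under the alternatives, 1212 kept direction and call, 69 became called, 15 lost the call and 18 turned sign. The cause was not tested.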
